A study of Mus musculus with 16 samples.

Results

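The first response to E1A induction in mouse embryonic stem cells was read from the 3 h and the 0 h arrays of an induction time course, which are 4 of the 16 arrays of the series, chosen by their sample titles. The genetic background of the cells was C57BL/6, C3H and CD1, mixed. Each sample's RNA was hybridised to its own Illumina bead array in 1 colour, with 2 arrays per group. The groups were cells harvested 3 h after induction of E1A and cells harvested at 0 h, then 6, 9, 12, 24 and 48 h of induction, and a 48 h cherry control, as its label names it. All 16 samples, the 0 h and control samples included, carry the treatment label of E1A induction, and the labels do not say whether the control cells held E1A, which promoter drove it, or whether the 2 arrays of a group came from separate cultures. The p-values below therefore measure the spread between these arrays, which may be technical. No uninduced cells harvested at 3 h were analysed here, so E1A and anything else that changed during the first 3 h of the procedure cannot be told apart.

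E1A is the first adenoviral protein made in an infected cell; it binds the retinoblastoma family, which holds back E2F transcription factors, and the p300 and CBP acetyltransferases. Transcripts that change within a few hours of a stimulus usually include the immediate early genes, such as Fos, Jun, Egr1 and Srf, which are transcribed from factors already present in the cell, without new protein synthesis. Mouse embryonic stem cells keep their undifferentiated state through Oct4 (Pou5f1), Sox2 and Nanog together with Klf2, Klf4 and other factors that respond to outside signals, and BMP signalling in these cells acts in large part through the Id genes, which code for inhibitors of basic helix-loop-helix factors.

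The 4 arrays were alike in depth. Median deposited intensity was 129.7 and 129.2 at 3 h, against 133.5 and 135.1 at 0 h, and each of the 16 arrays detected 12124 to 12639 of the 25697 probes (detection p under 0.05). All 10 markers of embryonic stem cells were detected on all 4 arrays. Their summed normalized intensity was between 59797 and 62272 at 3 h, against 65382 to 70520 at 0 h, and 4 of their 17 probes fell, which were those of Klf4 and Fgf4 described below. Of 7 markers of feeder fibroblasts only Thy1 was detected on all 4 arrays, Col1a2, Col3a1, Lum and Postn were detected on none, and their summed level was 251.7 to 264.3 at 3 h and 259.9 to 260.6 at 0 h. For primitive endoderm Gata6 and Sox17 were detected and Foxa2 was on no array, and for trophoblast Eomes and Krt8 were detected and Elf5 was on none. None of the tested probes of these last 3 marker sets was called at 3 h. Fewer cells of a type and less RNA per cell cannot be told apart in such bulk samples.

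At 3 h, 203 probes differed from 0 h, which is 1.45% of the 13974 tested. Of these, 123 were higher (0.88% of those tested) and 80 were lower (0.572%). A probe was called when limma's moderated test over all 16 arrays gave an adjusted p under 0.05, and 2115 probes had an unadjusted p under 0.05. Scaling the arrays to a common median in place of quantile normalization gave 225 calls, of which 36.89% were higher, against 60.6% here. Left out 1 at a time, the 3 h replicates 1 and 2 left 93 and 99 calls and the 0 h replicates 1 and 2 left 87 and 154. The called probes with a gene name stood for 109 genes that rose and 70 that fell, and 15 called probes had no name. Of 50 called genes with several tested probes, 6 had all of them called, none had calls in both directions and 13 had a further probe of the opposite sign. Most changes were small. The median log2 difference of the probes that rose was 0.61 and that of the probes that fell was -0.56, with a median standard error of 0.11. A log2 difference of 1 or more was reached by 19 called probes (0.136% of those tested), and 15 of them were higher. Both 3 h arrays lay on 1 side of both 0 h arrays for all 203 called probes, as they did for 45.6% of all tested probes. Just inside the threshold was Cdr2 (log2 difference 0.41, adjusted p = 0.0488) and just outside it Tpmt (log2 difference -0.43, adjusted p = 0.0507).

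**Figure D1:**
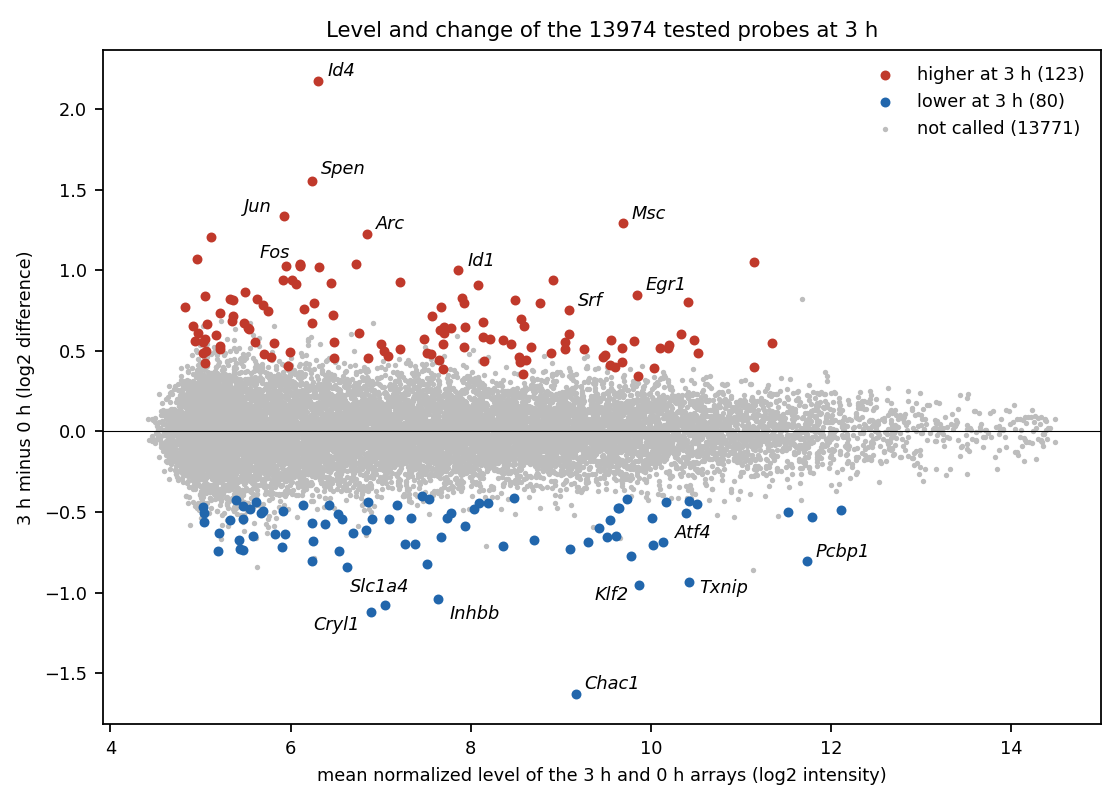
Each point is 1 of the 13974 tested probes, with its mean normalized level on the 3 h and 0 h arrays (log2 intensity) on the x axis and its difference, 3 h minus 0 h (log2), on the y axis; red points are the 123 probes called higher, blue points the 80 called lower. Called probes lie at dim and bright levels, with none among the very brightest probes; Id4 stands highest at 2.18 and Chac1 lowest at -1.63.

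The immediate early list gave the largest count of rises. Of its 26 tested probes, which stand for 19 genes, 9 rose and 1 fell, with a median log2 difference of 0.13, where the median over all tested probes was -0.000973. Of all tested probes 0.88% rose and 0.572% fell. This and the other lists were chosen with earlier results of these data known, so their counts are a description and not separate evidence. Jun and Fos, which pair to form the AP-1 transcription factor, were among the 10 highest named genes. Jun had deposited intensities of 195.9 and 185.5 at 3 h, against 135.8 and 147.0 at 0 h. It was detected on both 3 h arrays and on 1 of the 0 h arrays, so its log2 difference of 1.34 (standard error 0.13, adjusted p = 0.000117) starts close to background. Fos had 195.7 and 187.9 at 3 h, against 152.7 and 149.7 at 0 h, with a log2 difference of 1.04 (standard error 0.10, adjusted p = 0.000117). The arrays of the 2 times did not overlap for either gene, as for every called probe and for 45.6% of all tested probes. Junb, a further AP-1 subunit, rose by 0.77 on the log2 scale (adjusted p = 0.00172), while Jund, at 0.00, and the probe of Atf3, at 0.04, were not called.

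Among the zinc finger factors of the same list, Egr1 rose at 3 h. Its intensities were 1398 and 1262 at 3 h, against 857.7 and 821.9 at 0 h, a 1.80-fold difference (log2 0.85, standard error 0.09, adjusted p = 0.000194). Its relative Egr4, which was not on the list but was among the 10 highest named genes, had 193.1 and 173.8 at 3 h, against 143.4 and 150.0 at 0 h (log2 difference 1.03, adjusted p = 0.00184). Egr2 and Egr3 had log2 differences of 0.14 and 0.07 and were not called. Klf2, which is counted both as an immediate early and as a pluripotency gene, was the only called member of the list that fell. Other members of the list rose by less. Dusp1, a phosphatase of the MAP kinases, rose by 0.56 on the log2 scale (adjusted p = 0.0109), Ier3 by 0.64 (adjusted p = 0.00211) and Zfp36, which destabilises short-lived mRNAs, by 0.61 (adjusted p = 0.00223). Ccn2, a secreted matrix protein, rose by 0.55 (adjusted p = 0.00894). Members that were not called include Myc (-0.14), Ccn1 (-0.15 to 0.12 over 3 probes), Dusp6 (-0.08 to 0.19 over 3 probes) and Klf6 (-0.27 and -0.12). The calls of Dusp1 and Ccn2 were lost without either 3 h array, that of Dusp1 also without replicate 2 and that of Ccn2 without replicate 1 of 0 h, and Dusp1 was not called with median scaling.

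Srf, the serum response factor, binds the CArG box and drives many immediate early and cytoskeletal genes. It had intensities of 801.3 and 782.8 at 3 h, against 543.6 and 556.4 at 0 h (1.69-fold, log2 0.75, standard error 0.09, adjusted p = 0.000468). Its other probe had a log2 difference of 0.57 and was not called (adjusted p = 0.11). Promoters were matched by symbol in RefSeq's table (GRCm38.p6; from 250 bases before to 50 after each start), and 85 of the 109 genes that rose had at least 1 promoter there. A CArG box was found in 4 of their 108 promoters (3.7%), in 1 of 83 promoters of the genes that fell (1.2%) and in 1.63% of all 32851 promoters, counting matches on either strand. The 32851 promoters were not limited to tested genes. The 4 belong to Srf, Vcl, Zfp36 and Cnn2. Those of Srf and of Vcl, which codes for the actin-binding protein vinculin, are shown as examples from these 4 genes, all of which rose at 3 h. Capitals mark the CArG boxes. The Srf window is chr17:46556113-46556412 (minus strand) and the Vcl window chr14:20929148-20929447 (plus strand).
Srf: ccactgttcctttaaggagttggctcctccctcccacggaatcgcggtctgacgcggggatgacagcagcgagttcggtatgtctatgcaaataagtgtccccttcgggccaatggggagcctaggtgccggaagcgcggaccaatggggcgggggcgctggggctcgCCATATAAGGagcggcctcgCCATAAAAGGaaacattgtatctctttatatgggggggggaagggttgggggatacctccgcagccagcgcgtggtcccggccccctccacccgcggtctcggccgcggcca
Vcl: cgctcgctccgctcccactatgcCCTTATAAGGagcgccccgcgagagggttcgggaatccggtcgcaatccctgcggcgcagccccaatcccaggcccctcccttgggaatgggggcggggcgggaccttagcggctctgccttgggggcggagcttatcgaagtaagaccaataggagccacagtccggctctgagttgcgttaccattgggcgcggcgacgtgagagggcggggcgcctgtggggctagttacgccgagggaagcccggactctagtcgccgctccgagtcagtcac
The Srf window holds 2 CArG boxes next to each other and the Vcl window 1. Vcl had intensities of 2095 and 1621 at 3 h, against 1336 and 1404 at 0 h (log2 difference 0.57, standard error 0.11, adjusted p = 0.0133); it was chosen for its promoter after its values were seen. No CArG box lay in the windows of Fos, Jun, Junb or Egr4, which says only that these letters are not in the 300 bases searched.

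Of the list of BMP, TGF-beta and Nodal targets, 3 of 13 tested probes rose and none fell, with a median log2 difference of 0.27. Of all tested probes 0.88% rose and 0.572% fell. Id4 had the largest log2 difference of all tested probes with the background step used here. Its intensities were 269.4 and 254.3 at 3 h, against 140.4 and 139.7 at 0 h, a 4.52-fold difference after background correction and normalization (log2 2.18, standard error 0.10, adjusted p = 5.42e-08). Its size depends on that step: the log2 difference was 0.98 with no background correction, below Chac1 (-1.38) and Msc (1.15) in size, and 1.51 with an offset of 50, where Chac1 was at -1.53. Id1 had 420.3 and 416.0 at 3 h, against 271.4 and 278.7 at 0 h, a 2.00-fold difference (adjusted p = 0.000466). Id2 (log2 difference 0.44, adjusted p = 0.0905) and Id3 (0.29, adjusted p = 0.398) did not pass the threshold. Lefty1, a secreted inhibitor of Nodal, had 689.5 and 606.8 at 3 h, against 547.9 and 518.6 at 0 h (log2 difference 0.49, adjusted p = 0.0386). Lefty1 lost its call in 13 of 28 alternative settings, among them median scaling and leaving out any single 3 h or 0 h array. Lefty2 (0.29), Nodal (-0.10) and the other members were not called.

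The remaining genes among the 10 highest come from no list. Spen, a large RNA-binding repressor that works with Notch and nuclear receptor corepressors, had 226.0 and 219.2 at 3 h, against 139.7 and 155.9 at 0 h (2.94-fold, adjusted p = 1.26e-05). Msc, the basic helix-loop-helix repressor musculin, had 1436 and 1334 at 3 h, against 677.8 and 655.4 at 0 h (2.45-fold, adjusted p = 1.26e-05). Both genes were higher on each 3 h array than on either 0 h array. Arc, an activity-regulated gene first studied in neurons, had 284.3 and 255.7 at 3 h, against 181.8 and 178.9 at 0 h (2.34-fold, adjusted p = 0.000466). Irs2, an adaptor of the insulin receptor, had 247.5 and 241.9 at 3 h, against 174.1 and 183.0 at 0 h (2.06-fold, adjusted p = 0.00165). Otx1, a homeobox factor of the anterior nervous system, had 197.5 and 186.1 at 3 h, against 150.4 and 151.9 at 0 h (2.04-fold, adjusted p = 2.52e-05). Slc46a3, a transporter of the lysosome, had 196.7 and 187.3 at 3 h, against 159.2 and 144.3 at 0 h (2.05-fold, adjusted p = 0.000914). The arrays of the 2 times did not overlap for any of these 6 genes, which the choice of the named genes required.

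The largest fall among the tested probes belonged to Chac1, an enzyme that breaks down glutathione and is induced through ATF4 in the unfolded protein and amino acid responses. Its intensities were 391.0 and 442.7 at 3 h, against 1235 and 1154 at 0 h, a 3.09-fold lower level (log2 -1.63, standard error 0.11, adjusted p = 3.17e-06). Of the 21 tested probes of the heat shock and unfolded protein list, 5 fell and none rose, with a median log2 difference of -0.24. Of all tested probes 0.572% fell and 0.88% rose. Atf4 itself, the transcription factor of this response, had 952.9 and 992.8 at 3 h, against 1615 and 1698 at 0 h (1.61-fold lower, adjusted p = 0.00128). Trib3, a pseudokinase that is an ATF4 target, had 178.7 and 177.5 at 3 h, against 233.9 and 240.6 at 0 h (1.55-fold lower, adjusted p = 0.0109). Both probes of Herpud1, which acts in the degradation of proteins from the endoplasmic reticulum, fell, by 0.66 and 0.60 on the log2 scale (adjusted p = 0.00204 and 0.00966). Trib3 lost its call without any single array of the 4, and the Herpud1 probe that fell by 0.60 without replicate 2 of 3 h or replicate 1 of 0 h. No called member of the list codes for a heat shock chaperone. Hspe1, the HSP10 chaperonin of mitochondria, is not on the list and was picked out after its values were seen; it had 2568 and 2556 at 3 h, against 4546 and 3489 at 0 h (log2 difference -0.50, adjusted p = 0.0323). Of the chaperone genes on the list, Hspa1a (0.23), Hspa5 (-0.12), Hsp90b1 (-0.23), Hsp90aa1 (-0.25) and Dnajb1 (0.10) were not called, and neither were Ddit3 (-0.50 and -0.18), Asns (-0.28 to -0.06 over 3 probes) and Xbp1 (-0.28).

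Slc1a4, a carrier of neutral amino acids, was among the 10 lowest named genes, with 189.8 and 181.5 at 3 h, against 306.6 and 304.1 at 0 h (2.11-fold lower, adjusted p = 2.96e-05). The ATF4 element TGATGNAA was searched on both strands of the same promoter windows. It was found in 10 of 83 promoters of the genes that fell (12.0%), in 5 of 108 promoters of those that rose (4.63%) and in 3.97% of all promoters. The 83 promoters belong to 64 of the 70 genes, and 1 gene can have several. The windows of Chac1, Trib3 and Slc1a4 are shown as examples of genes with a match that fell at 3 h and were called above 0 h at 48 h. The same holds for Jdp2, Nupr1, Gadd45g and Vldlr, which are not shown. Capitals mark the element on the strand shown, where it reads as its reverse complement. The Chac1 window is chr2:119350992-119351291 (plus strand), the Trib3 window chr2:152344011-152344310 (minus strand) and the Slc1a4 window chr11:20332664-20332963 (minus strand).
Chac1: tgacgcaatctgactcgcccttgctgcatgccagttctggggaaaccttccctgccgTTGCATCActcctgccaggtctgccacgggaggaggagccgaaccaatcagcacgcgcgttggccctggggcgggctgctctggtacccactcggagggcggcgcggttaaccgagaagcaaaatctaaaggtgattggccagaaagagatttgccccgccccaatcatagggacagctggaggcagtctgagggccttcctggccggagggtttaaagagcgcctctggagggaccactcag
Trib3: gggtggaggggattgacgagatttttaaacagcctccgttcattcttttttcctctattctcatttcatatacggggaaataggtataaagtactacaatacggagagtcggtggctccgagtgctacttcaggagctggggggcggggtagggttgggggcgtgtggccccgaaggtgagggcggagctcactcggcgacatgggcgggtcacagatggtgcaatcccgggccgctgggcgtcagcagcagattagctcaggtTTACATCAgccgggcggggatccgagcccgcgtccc
Slc1a4: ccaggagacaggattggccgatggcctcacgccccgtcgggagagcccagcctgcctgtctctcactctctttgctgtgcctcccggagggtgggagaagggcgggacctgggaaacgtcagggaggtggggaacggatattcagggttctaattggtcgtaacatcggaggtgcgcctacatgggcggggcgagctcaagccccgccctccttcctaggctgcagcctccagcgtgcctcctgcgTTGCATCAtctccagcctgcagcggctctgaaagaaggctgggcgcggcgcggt
Each of the 3 windows holds 1 match. Herpud1, Nupr1, Jdp2, Gadd45g, Vldlr, Coa4 and Map10 also had a window with a match and Atf4 had none. Other motifs searched were the CRE TGACGTCA (2.78% of promoters of the genes that rose, 3.61% of those that fell, 1.79% of all), the AP-1 site TGANTCA (5.56%, 8.43% and 7.81%), the E box CACGTG (9.26%, 14.5% and 7.15%) and the Sp1 or KLF box GGGCGG (65.7%, 68.7% and 35.7%). The share over all promoters was not limited to tested genes, and both called sets were above it for the Sp1 or KLF box. It is therefore not a matched reference for the called genes. These matches describe letters, and binding was not measured.

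Of the 32 tested probes of the pluripotency list, 5 fell and none rose, and the median log2 difference was -0.19. Of all tested probes 0.572% fell and 0.88% rose. Klf2 had 804.6 and 711.1 at 3 h, against 1537 and 1489 at 0 h (1.93-fold lower, adjusted p = 0.000764). All 3 probes of Klf4 fell, by 0.84, 0.82 and 0.73 on the log2 scale. The probe ILMN_2999439 of Klf4 had 520.7 and 505.6 at 3 h, against 894.3 and 837.2 at 0 h (1.66-fold lower, adjusted p = 0.00259). Fgf4, a growth factor secreted by the undifferentiated cells, had 191.3 and 195.2 at 3 h, against 242.8 and 266.5 at 0 h (1.46-fold lower, adjusted p = 0.0303). Fgf4 lost its call without any single array of the 4, and the Klf4 probe ILMN_1241903 without replicate 1 of 3 h or of 0 h. The core factors did not pass the threshold, with log2 differences of 0.07 and -0.16 for the 2 probes of Pou5f1, -0.20 for both of Sox2 and -0.22 for Nanog. Esrrb (-0.25), Klf5 (-0.14), Zfp42 (-0.02) and the 3 probes of Tbx3 (-0.38, -0.32 and -0.10) were not called either.

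Further genes that fell stood outside these lists. Txnip, an inhibitor of thioredoxin whose transcript follows glucose, had 1159 and 1002 at 3 h, against 2031 and 2311 at 0 h (1.91-fold lower, adjusted p = 0.000236). Inhbb, a subunit of activin and inhibin, had 245.4 and 219.4 at 3 h, against 411.4 and 398.7 at 0 h (2.06-fold lower, adjusted p = 0.00419). Tfap2c, a factor of trophoblast and germ cells that embryonic stem cells also express, had 912.6 and 880.8 at 3 h, against 1493 and 1584 at 0 h (1.63-fold lower, adjusted p = 0.000597). Its other probes had log2 differences of -0.36 (adjusted p = 0.0709) and -0.42 (adjusted p = 0.0549), against -0.71 for this one. It was the only called probe of the 8 on the trophoblast list. Pcbp1, an RNA-binding protein, had 2851 and 2475 at 3 h, against 5079 and 5113 at 0 h (1.75-fold lower, adjusted p = 0.000217). Cryl1, a lambda-crystallin-like dehydrogenase, had 177.4 and 174.1 at 3 h, against 281.7 and 292.5 at 0 h (2.17-fold lower, adjusted p = 0.00024). Jdp2, a repressor that dimerises with Jun, had 130.3 and 132.9 at 3 h, against 165.9 and 156.8 at 0 h (adjusted p = 0.00211), and was detected on 1 of the 2 arrays at 3 h. Inhbb lost its call without replicate 2 of 3 h or replicate 1 of 0 h. Each of these 6 genes, like every called probe that fell, was lower on both 3 h arrays than on either 0 h array.

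**Figure D2:**
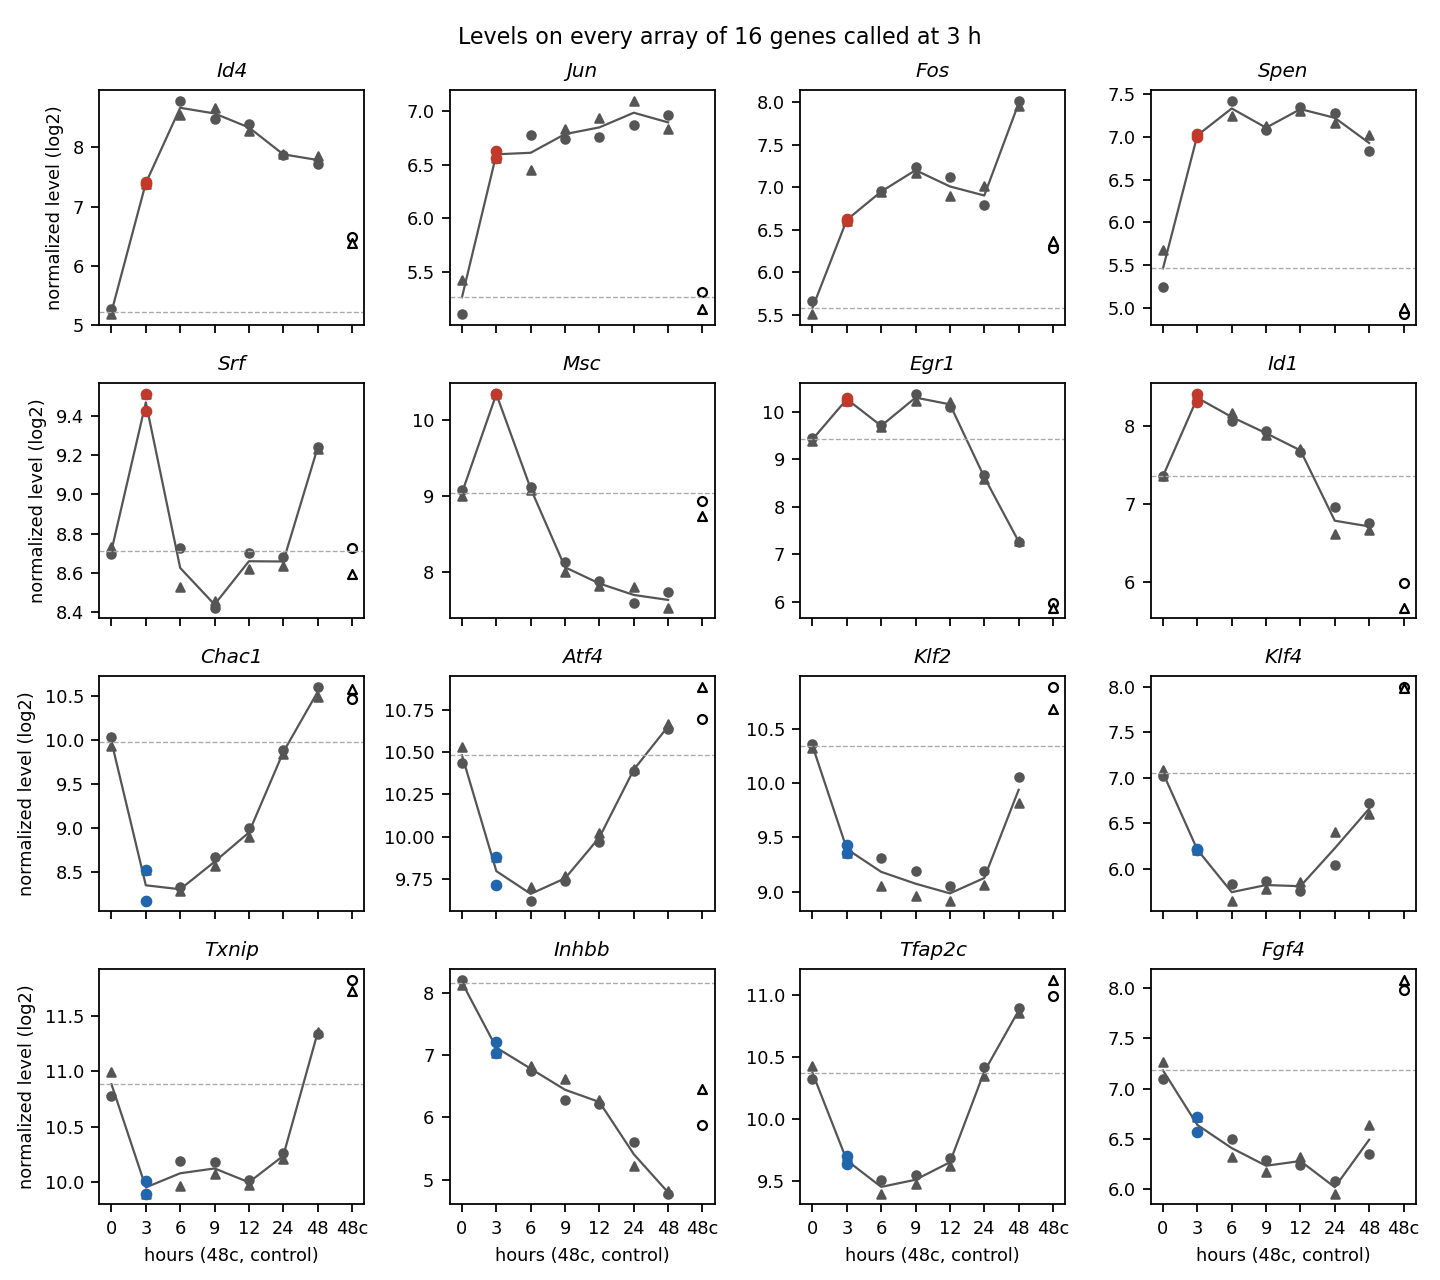
Normalized level (log2 intensity) of 16 called genes on every array, by hours of induction; circles are replicate 1 and triangles replicate 2, coloured at 3 h (red, higher; blue, lower), open symbols are the 48 h control (48c), the line joins group means and the dashed line is the 0 h mean. Id4, Jun and Spen stayed above 0 h, Msc was near or below 0 h from 6 h, Srf was near 0 h from 6 to 24 h and above it at 48 h, and Chac1, Atf4 and Tfap2c were low at 3 h and at or above 0 h by 48 h.

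The other gene lists held few calls, set beside the 1.45% of all tested probes called at 3 h. Of 34 tested probes of p53 targets, 1 of 2 probes of Phlda3 rose (log2 difference 0.52, adjusted p = 0.019; the other was at 0.37) and 1 of 3 probes each of Bbc3 (-0.42, adjusted p = 0.0474) and Cdkn1a (-0.46, adjusted p = 0.0374) fell; the median was -0.03. Cdkn1a codes for the cell cycle inhibitor p21 and Bbc3 for the apoptosis protein PUMA, and their other probes had log2 differences of -0.23 and -0.06 for Cdkn1a and -0.20 and -0.15 for Bbc3. The 20 probes of the apoptosis list held Bbc3 and 1 rise, Bik (0.41, adjusted p = 0.0351). Of 4 neural and ectodermal probes, 1 of the 2 of Nes rose (0.64, adjusted p = 0.0213), while the other, of about the same brightness at 0 h, was at 0.04 (adjusted p = 0.957). Bbc3, Cdkn1a and Bik lost their calls without any single 3 h or 0 h array. Over 28 alternative settings, these included, they lost them in 16, 11 and 13. Phlda3 lost its call without replicate 2 of 3 h or replicate 1 of 0 h, and Nes without replicate 2 of 3 h or either 0 h array. With median scaling Phlda3 and Bik were not called. None of the 40 probes of E2F targets and S phase genes was called by limma, with a median of -0.01, and 1 had an unadjusted p under 0.05. Among them were Ccne1 (0.00), E2f1 (0.14), Cdc6 (0.07 and -0.08), Mcm2 (0.08) and Pcna (-0.20). None was called either among 17 probes of G2 and mitosis (1 with an unadjusted p under 0.05), 13 of interferon and antigen presentation (3), 6 of Wnt targets (1), 6 of retinoic acid targets (1), 15 of glycolysis (0), 11 of primitive endoderm (2), 4 of mesoderm (2) and 8 of feeder fibroblasts (1).

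**Figure D3:**
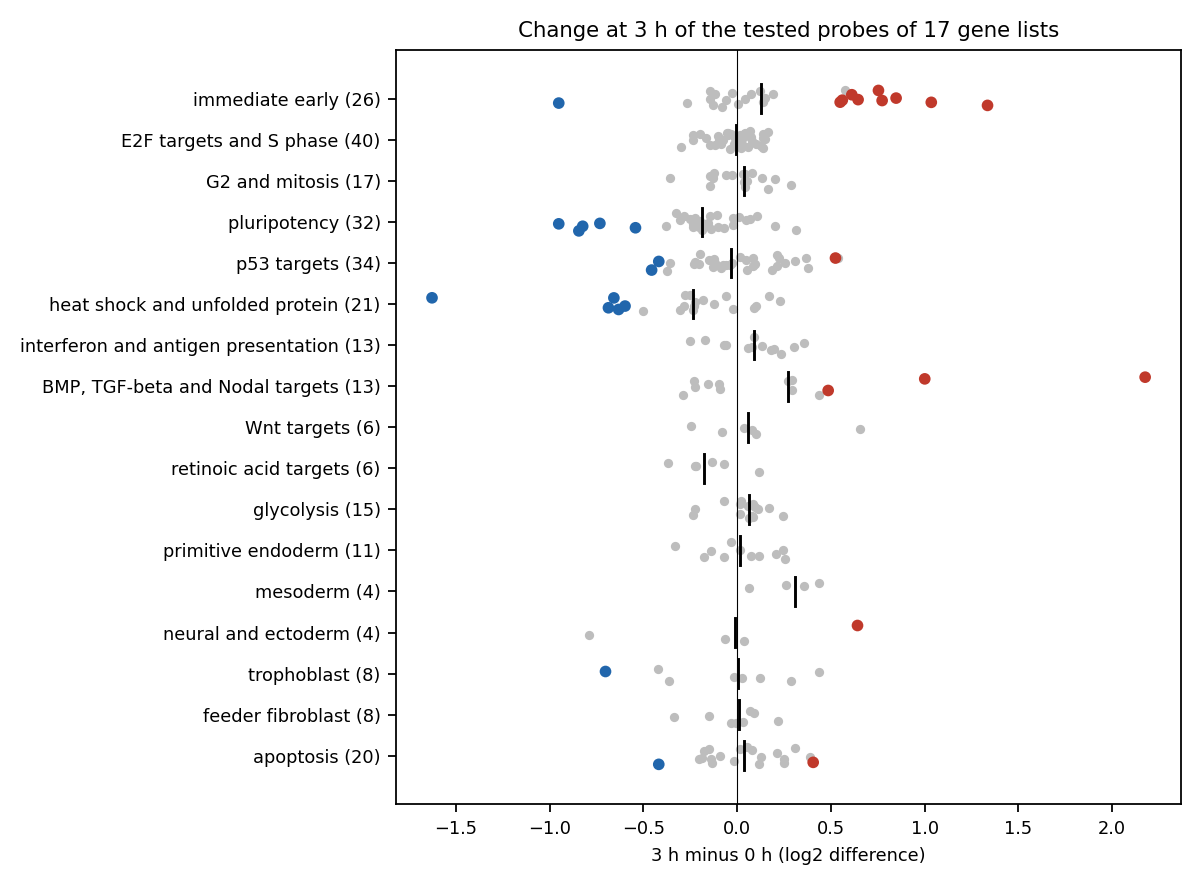
Each point is a tested probe of 1 of 17 gene lists, with the number of tested probes in parentheses; the x axis is the log2 difference, 3 h minus 0 h, red and blue points are called higher and lower, and the black tick is the list's median. The immediate early list holds 9 red points and 1 blue, the pluripotency and the heat shock and unfolded protein lists hold 5 blue points each, and the 40 E2F target and S phase probes sit around 0.

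Changes at 3 h were found among dim and bright probes. With the tested probes split into 5 equal classes by their mean level, from dim to bright, 0.751%, 0.787%, 0.931%, 1.22% and 0.716% of the probes rose. The lower calls made up 0.394%, 0.537%, 0.895%, 0.322% and 0.716% of the same classes. The median standard error was smaller in the brighter classes (0.14, 0.14, 0.12, 0.11 and 0.10 on the log2 scale), and the median size of a called change was 0.63, 0.65, 0.61, 0.59 and 0.53. The median 0 h level was 7.19 for the probes that rose, 7.61 for those that fell and 7.12 for all tested probes (log2 intensity).

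Most called probes, like most tested probes, were detected at both times. All 4 arrays detected 78.9% of the probes that rose and 86.2% of those that fell, against 81.1% of all tested probes. Of the 123 that rose, 97 were detected on all 4 arrays and 19 on both 3 h arrays and neither 0 h array, a pattern that 98 of all 13974 tested probes showed. Of the 80 that fell, 69 were detected on all 4 arrays and 7 on neither 3 h array and both 0 h arrays, a pattern of 131 tested probes. For these 26 probes the level of the dim side is only a bound, since it was not well above background. Each bound below sets the bright group's mean against the higher of the probe's own level and the lowest level among detected probes on the dim arrays. It holds only for the background step and offset used here, and other settings can give smaller differences. Cbx8, a Polycomb protein, had 157.8 and 156.7 at 3 h, against 134.5 and 136.6 at 0 h, and was at least 1.73-fold higher (adjusted p = 0.000468). Dusp2, another MAP kinase phosphatase, had 145.1 and 138.0 at 3 h, against 118.3 and 124.7 at 0 h, and was at least 1.26-fold higher (adjusted p = 0.00237). The homeobox gene Evx1 had 141.8 and 134.0 at 3 h, against 123.7 and 129.3 at 0 h, at least 1.15-fold higher (adjusted p = 0.0181). Cbx8 stayed detected on both arrays at every later time, Dusp2 on 1 array at 9 h and 1 at 12 h, and Evx1 on no later array.

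On the other side, Chp1 had 131.1 and 130.3 at 3 h, against 158.5 and 160.4 at 0 h, at least 1.57-fold lower (adjusted p = 0.0021), and was detected on both arrays at each later time, while the 2 other probes of Chp1 were not called (-0.17 and 0.17). Pim1, a kinase downstream of LIF and STAT3 signalling, had 131.4 and 129.5 at 3 h, against 146.9 and 157.5 at 0 h, at least 1.37-fold lower (adjusted p = 0.042); its other probe was at -0.02. Fbf1, which was among the 10 lowest named genes, had 126.8 and 121.3 at 3 h, against 143.5 and 159.0 at 0 h, at least 1.33-fold lower with the background step used (adjusted p = 0.0253), a call that was lost without either 3 h array or replicate 2 of 0 h. Its bound is 0.41 on the log2 scale, and its log2 difference was smaller in size with no background correction (-0.23) and with an offset of 50 (-0.39). The Wnt ligand Wnt8a was at least 1.08-fold lower (adjusted p = 0.019) and was detected on no array after 0 h. Apart from Fbf1, these genes were chosen after their values were seen. Of the 19 probes that came above background, 11, 8, 5, 5 and 3 were detected on both arrays at 6, 9, 12, 24 and 48 h. Of the 7 that dropped below it, 3, 2, 3, 4 and 3 were detected on both arrays at those times.

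To follow each probe, its 6, 9, 12, 24 and 48 h levels were compared with 0 h and with 3 h. These comparisons share the 0 h or the 3 h arrays with the comparison that chose the probes, so the counts describe the courses and are not separate evidence for the 3 h change. A call was counted as persisting when the later time was called against 0 h with the same sign, and as grown, held or shrunk by whether the later time also differed from 3 h. It was counted as reversed when called against 0 h with the opposite sign. A probe not called against 0 h was counted as returned when it differed from 3 h, and as undecided otherwise.

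Of the 123 probes that rose, 93, 70, 71, 66 and 67 were still called higher at 6, 9, 12, 24 and 48 h, and 0, 1, 2, 10 and 20 were called lower. Over all tested probes 5.35%, 4.84%, 7.16%, 14.8% and 25.5% were higher than at 0 h at those times and 3.96%, 4.03%, 6.09%, 14.1% and 27.5% were lower. Of the 80 that fell, 57, 45, 46, 41 and 40 were still called lower and 0, 0, 0, 7 and 20 were called higher. The median log2 difference of the risen set from 0 h was 0.61 at 3 h and 0.53, 0.44, 0.41, 0.30 and 0.34 at the later times. That of the fallen set was -0.56 at 3 h and then -0.55, -0.47, -0.43, -0.30 and -0.24. At 6 h most probes that persisted were held at their 3 h level, 78 of 93 and 53 of 57. At 48 h, 32 of the risen set and 16 of the fallen set had grown beyond it; against 3 h, 1.57%, 3.4%, 4.84%, 14.1% and 25.1% of all tested probes were higher at 6, 9, 12, 24 and 48 h and 0.988%, 2.52%, 3.84%, 12.9% and 26.6% were lower. These 48 grown probes were 17 without either 3 h array and 20 without replicate 1 of 0 h.

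**Figure D4:**
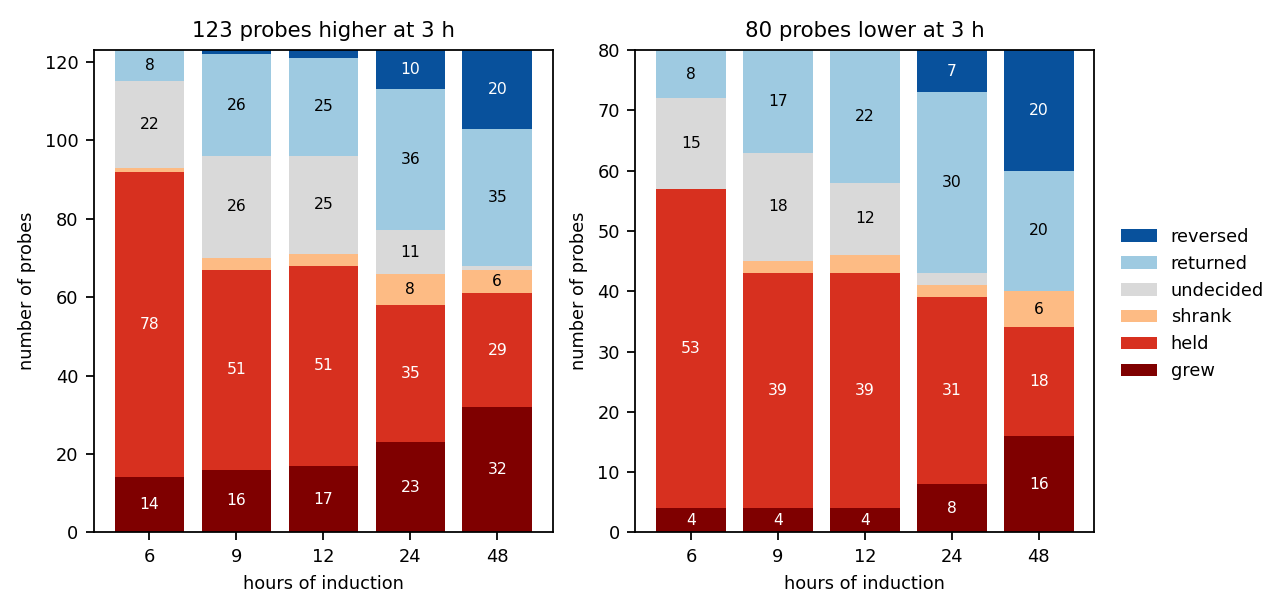
Stacked bars give, for each later time in hours of induction, the number of the 123 probes higher at 3 h (left) and the 80 lower at 3 h (right) that had grown, held or shrunk relative to 3 h while still called against 0 h, that were undecided or returned, or that were called with the opposite sign. Held is the largest class at 6 h (78 and 53 probes), and 20 probes of each set are reversed at 48 h.

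Over the whole course, 64 of the 203 probes (45 that rose and 19 that fell) kept their call at all 5 later times. This is 31.5%, where 406 of all 13974 tested probes (2.91%) were called at all 5 times in the direction of their 3 h difference, whether or not that was called. Another 15 (9 and 6, or 7.39%) were never called again, where 5461 of all tested probes (39.1%) had no call at any later time. At 6 h and at no time after, 10 (7 and 3, or 4.93%) were called, as were 100 of all tested probes (0.716%). At 48 h, 20 probes of each set were called against their 3 h direction, which is 19.7% of the 203, and the share over all tested probes was also 19.7% (2750 probes). Of the 20 fallen probes that reversed, 12 had still been called lower at 6, 9 and 12 h. Of the 20 risen probes that reversed, 5 had still been called higher at those 3 times. Together these were 17 of the 203 probes. Of all 13974 tested probes, 51 took such a course relative to their 3 h difference, whether or not that was called. Since leaving out an array changes which probes are called at 3 h, these counts moved with it. The 64 probes were 33 without replicate 1 of 3 h, 35 without its replicate 2 and 29 without replicate 1 of 0 h. The 40 reversed probes were 24 and 25 without either 3 h array and 17 and 26 without either 0 h array, and the 15 never called again were 4, 3 and 8 without 3 h replicate 1, 3 h replicate 2 and 0 h replicate 1.

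Genes that kept and enlarged their rise include Id4, whose log2 difference from 0 h was 2.18 at 3 h, 3.44 at 6 h and 2.56 at 48 h and exceeded its 3 h value at each later time. Fos, at 1.04 at 3 h, was at 1.62 at 9 h and 2.40 at 48 h, Irs2 at 1.04 and then 2.55 at 48 h, and Otx1 at 1.03, 1.71 at 6 h, 0.58 at 12 h and 1.64 at 48 h. Jun and Spen stayed near their 3 h difference, Jun between 1.35 and 1.72 and Spen between 1.47 and 1.87. Slc46a3, Dusp1 and Zfp36 were also called at all 5 times. Outside the naming rule, and chosen after its values were seen, Rec8, a meiotic cohesin subunit, went on climbing. It had 378.7 and 350.7 at 3 h, against 294.3 and 281.2 at 0 h (log2 difference 0.64, adjusted p = 0.0021), and its difference from 0 h was 1.71, 2.10, 2.43, 3.22 and 3.64 at 6, 9, 12, 24 and 48 h. Nrarp, a feedback inhibitor of Notch signalling, was also chosen after its values were seen. It was at 0.94 at 3 h and between 1.23 and 1.86 later, above its 3 h level at each time. In the 48 h control its normalized log2 levels were 6.97 and 7.12. They were 6.86 and 6.69 at 48 h of induction and 5.60 and 5.49 at 0 h.

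Other rises did not last to 48 h or were interrupted. Srf was at 0.75 at 3 h and at -0.09, -0.27, -0.05 and -0.06 at 6 to 24 h, each called lower than 3 h and none called against 0 h, and at 48 h it was again above 0 h (0.52). Msc was at 1.29 at 3 h, 0.05 at 6 h and -0.98, -1.19, -1.34 and -1.40 from 9 to 48 h, called below 0 h at each of the last 4 times; its intensities at 48 h were 315.8 and 273.9. Id1 was still called higher at 6 h (0.76) and 9 h (0.55), was not called at 12 h (0.33) and was called below 0 h at 24 h (-0.57) and 48 h (-0.64). Egr1 was 0.85 above 0 h at 3 h and had values of 0.29, 0.88, 0.74, -0.80 and -2.15 at 6, 9, 12, 24 and 48 h. Egr4 was last called higher at 6 h and at 24 and 48 h was detected on no array, at least 1.25-fold and 1.27-fold below 0 h. Arc persisted to 12 h (0.73) and was at -0.40 at 48 h. Lefty1 was at -0.08 at 6 h, then 1.08, 1.66 and 2.48 at 9, 12 and 24 h and 0.09 at 48 h. Pou3f1, a POU factor of early neural cells chosen after its values were seen, had 482.5 and 434.5 at 3 h, against 316.8 and 303.5 at 0 h (log2 0.91, adjusted p = 0.000849), stayed between 1.28 and 1.83 from 6 to 24 h and was called lower than 0 h at 48 h (-0.30).

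Among the falls, Chac1 was at -1.63 at 3 h and at -1.67, -1.36, -1.03 and -0.12 at 6, 9, 12 and 24 h, and was called above 0 h at 48 h (0.56). Slc1a4 was at -0.85, -0.70, -0.53 and -0.15 at those times and 0.53 at 48 h, and Trib3 at -0.80, -0.83, -0.69 and -0.18 and then 0.34, both called higher at 48 h. Atf4 was at -0.82, -0.73, -0.49 and -0.09 and at 48 h at 0.17, which did not pass the threshold against 0 h (adjusted p = 0.141). The probes of Herpud1 were at 0.15 and 0.04 at 48 h and were not called there. Nupr1, a small stress-response protein, and Slc6a9, a glycine carrier, were chosen after their values were seen: Nupr1 was at -0.55 at 3 h, -1.08 at 9 h and 2.10 at 48 h, and Slc6a9 at -0.70 at 3 h, -0.64 at 9 h and 1.21 at 48 h. Of another amino acid carrier, Slc38a2, 1 of 3 probes was called at 3 h (-0.43; the others were at 0.13 and -0.11), and it had returned by 6 h (-0.04). Tfap2c was lower through 12 h and Txnip through 24 h, both were called above 0 h at 48 h (0.50 and 0.47), and Jdp2 was at -0.73 at 3 h and 1.80 at 48 h.

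Most of the pluripotency probes that fell were called below 0 h at all later times. Klf2 was at -0.95 at 3 h and -1.16, -1.27, -1.36, -1.22 and -0.41 at the later times, called below 0 h at each. The probes ILMN_1221264 and ILMN_1241903 of Klf4 were called at each time as well, and ILMN_2999439 was at -1.03, -1.14, -0.98 and -0.58 at 6 to 24 h and no longer called at 48 h (-0.14). Fgf4 was at -0.77, -0.95, -0.90, -1.16 and -0.69, called at each. Outside that list, Inhbb was at -1.38, -1.72, -1.91 and -2.75 at 6, 9, 12 and 24 h. At 48 h it was detected on neither array and was at least 8.35-fold below 0 h. Pcbp1, also outside the list, was at -0.33 at 48 h. Cryl1 was called lower through 12 h, was not called at 24 h (-0.16) and was called below 0 h at 48 h (-0.35).

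**Figure D5:**
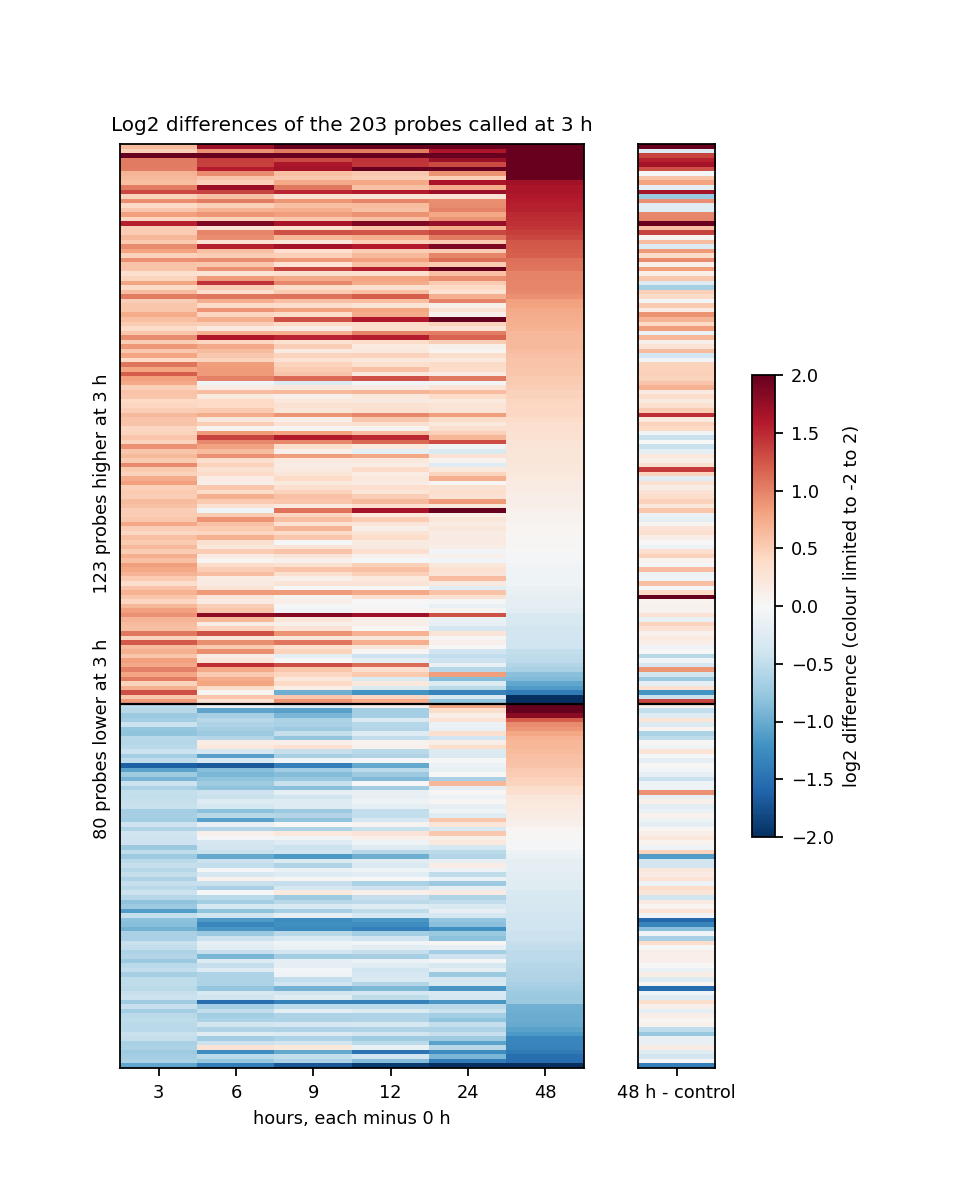
Rows are the 203 probes called at 3 h, sorted within the higher and the lower set by their 48 h value; columns are the log2 differences from 0 h at 3, 6, 9, 12, 24 and 48 h, with 48 h minus the 48 h control on the right, and colours are limited to -2 and 2. Most rows keep their colour to 12 h, and 20 rows of each set are called with the opposite sign at 48 h.

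Comparisons that hold neither 0 h nor 3 h arrays still take their error from the fit that chose the probes, and the median standard error was 0.105 for the called and 0.117 for all tested probes. Their shares are given as a description and not as separate evidence. From 12 h to 24 h, 9 of the 123 risen probes were higher at 24 h and 17 lower (7.32% and 13.8%). Of the 80 fallen probes 14 were higher and 4 lower (17.5% and 5%), against 2.53% and 1.94% of all tested probes. At 48 h against 24 h, 34 risen probes were higher and 30 lower (27.6% and 24.4%), and 35 fallen probes were higher and 21 lower (43.8% and 26.2%), against 18% and 18.3% of all tested probes. At 9 h against 6 h, 2 risen probes were higher and 3 lower and none of the fallen set was called, where 0.0143% of all tested probes were higher and 0.0358% lower (0.0501% in all). None of the 13974 was called by limma at 12 h against 9 h.

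At 48 h of induction against the 48 h control, 56 of the 123 probes that had risen at 3 h were higher and 9 lower (45.5% and 7.32%), where 8.85% and 9.05% of all tested probes were. Their median log2 difference from the control was 0.29. Of the 80 that had fallen, 5 were higher and 16 lower (6.25% and 20%), with a median of -0.07. The median over all tested probes was 0.01. The 86 probes called here were 48 and 50 without replicate 1 and 2 of 48 h, 41 and 50 without those of 3 h, and 40 without replicate 1 of 0 h. The control itself differed from 0 h at 52.9% of all tested probes, close to the 53% called between 48 h of induction and 0 h; both counts share the 0 h arrays.

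Gene by gene, Spen had 216.2 and 222.2 at 48 h, against 125.3 and 121.5 in the 48 h control, where it was detected on neither array, and was at least 3.62-fold higher (adjusted p = 1.01e-07). Jun had 226.9 and 206.1 at 48 h, against 136.2 and 125.1 in the control (log2 difference 1.66, adjusted p = 1e-06). Fos had 363.6 and 333.8 at 48 h, against 175.3 and 168.5 in the control (1.66, adjusted p = 1.01e-07). Id4, at 313.8 and 316.3, was above the control's 186.5 and 169.0 (1.35, adjusted p = 6.68e-07). For these 4 genes the direction at 48 h against the control was that of the 3 h change. Egr1 gave a further pattern: it had 257.4 and 246.0 at 48 h, against 159.4 and 147.3 in the control (1.35, adjusted p = 1.59e-07), and both groups were below the 0 h arrays. Srf was 0.57 above the control (adjusted p = 0.000515) and Junb 0.61 (adjusted p = 0.00132). Otx1 had 249.4 and 244.7 at 48 h, against 268.9 and 238.4 in the control (-0.19, adjusted p = 0.177), so its level at 48 h was not distinguished from that of the control, which was itself 1.82 above 0 h.

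Of the genes that fell at 3 h, the 3 Klf4 probes were lower at 48 h than in the control by log2 differences of -1.57, -1.34 and -1.12, and Fgf4 by -1.54 (adjusted p = 5.13e-07). Klf2 was also lower (-0.85, adjusted p = 0.00022). The Klf4 probe ILMN_2999439 had 716.1 and 712.4 at 48 h, against 1265 and 1377 in the control. Inhbb was at least 2.10-fold lower than the control (adjusted p = 5.21e-05). Chac1 (0.03), Atf4 (-0.14), Trib3 (-0.10), Slc1a4 (-0.05), Tfap2c (-0.18) and Jdp2 (-0.25) did not pass the threshold against the control, and their log2 differences of the control from 0 h were 0.31 to 2.05. Msc, which had risen at 3 h, was lower at 48 h than in the control (-1.20, adjusted p = 2.17e-06), and Bik was too (-0.67, adjusted p = 9.77e-05), with the control 1.65 above 0 h.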

How the data were processed

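Per the labels' protocols, biotin-labelled cRNA was made from DNA-free total RNA. The authors deposited a table called non-normalized, which gives 25697 probes an intensity and a detection p-value per array; BeadStudio 3.2, RMA and lumi are listed in the submitters' processing notes, without their roles. The deposited detection p-values ran in steps of 1 part in 798. The deposited log2 values of the series matrix were the authors' processed values of the same arrays; each of their 16 columns matched its own raw column, and they served as an alternative. The array's genome build is not given in the sources used here. Gene symbols came from GEO's platform annotation, where 23978 probes had 1 symbol, 0 several and 1719 none. The intensities were processed with limma 3.58.1 in R 4.3.3: a normexp background step that takes each array's background from its detection p-values, an offset of 16, quantile normalization and log2. The offset shrinks differences of dim probes, and a deposited intensity still holds its background, so raw ratios understate folds. Probes with a detection p under 0.05 on at least 2 of 16 arrays were tested (13974; 11723 left out) in a single limma fit with 1 coefficient per group (8 residual and 6.30 prior degrees of freedom) and Benjamini-Hochberg adjustment over all tested probes. The number of arrays limits the precision.

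Named genes were, among probes with 1 symbol called at 3 h with no overlap between the arrays, the 10 highest and the 10 lowest (1 probe per gene), plus the called members of 17 gene lists, which made 42 probes of 39 genes. The members and lists were chosen with earlier results of these data known, and the split into returned and undecided was added after seeing them. The fit was tested on simulated data. The alternatives covered scaling, background, offset, filter, moderation, samples in the fit, threshold, the series matrix values and each array left out.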

Additional observations from a re-analysis of the deposited data

Results flagged for a closer look

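For 36 of the 42 named probes the difference from 0 h was not the same at 48 h as at 3 h, tested as the difference between 48 h and 3 h in the same limma fit (adjusted p from 2.47e-11 to 0.0465). At that threshold 25.1% of all tested probes were higher and 26.6% lower at 48 h than at 3 h. Each value below is the log2 difference at 48 h minus that at 3 h, with 2 arrays per group and the 3 h arrays shared with the comparison that chose the probes.

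In 8 of the 36 the 48 h value lay beyond the 3 h value in the same direction. These were the rises of Irs2 (1.51), Fos (1.37), Otx1 (0.61), Bik (0.57), Id4 (0.39), Zfp36 (0.35) and Ccn2 (0.26). The 48 h control was above 0 h for these genes too, by 1.00, 0.75, 1.82, 1.65, 1.21, 0.48 and 0.29 in the same order; for Otx1 and Bik that is more than at 48 h of induction (1.64 and 0.98), and the part of time in culture was not tested. The fall of Inhbb (-2.32) ended below background on both 48 h arrays, so its size is a fitted value.

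In the other 28 the shift ran against the 3 h direction. Among the genes that rose at 3 h, Egr1 (-3.001), Msc (-2.70), Egr4 (-1.91), Id1 (-1.64) and Arc (-1.63) moved down most and were called below 0 h at 48 h. Egr4 was detected on neither 48 h array. Normalized log2 levels in the 48 h control were 5.96 and 5.88 for Egr1, and 8.93 and 8.73 for Msc. Those of Egr4 were 5.16 and 5.43, of Id1 6.00 and 5.68 and of Arc 5.905 and 5.51. The 0 h levels in the same order were 9.46 and 9.39, 9.08 and 9.00, 5.37 and 5.51, 7.36 and 7.36, and 6.31 and 6.17. At 48 h Egr1 and Id1 were called above the control and Msc and Egr4 below it. The part of time in culture was not tested. Smaller shifts down were those of Junb (-0.84), Phlda3 (-0.61), Nes (-0.51), Ier3 (-0.41), Lefty1 (-0.40) and Srf (-0.23).

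Among the genes that fell at 3 h, Jdp2 (2.53), Chac1 (2.19), Slc1a4 (1.61), Txnip (1.40), Tfap2c (1.21) and Trib3 (0.98) moved up and were called above 0 h at 48 h. Atf4 (0.86), Herpud1 (0.80 and 0.64), Cryl1 (0.77), Klf4 (0.59, 0.45 and 0.44), Klf2 (0.55), Pcbp1 (0.48), Bbc3 (0.40) and Cdkn1a (0.26) moved up by less. The 48 h control was above 0 h as well for Jdp2 (2.05), Txnip (0.89), Tfap2c (0.69), Slc1a4 (0.58) and Chac1 (0.54), and the part of time in culture in these shifts was not tested.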

How the results depend on the processing

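The 203 calls of the 3 h against 0 h comparison became 416 with no background correction, 366 with an offset of 50, 363 with an intensity trend and robust moderation, 86 with only the groups compared in the fit, 89 when the adjusted p had to be under 0.01 and 19 for a log2 minimum of 1. The share of higher calls became 36.89% with median scaling and 78.95% with the log2 minimum. The 64 calls kept at all 5 later times became 119 with no background correction, 103 with the larger offset, 29 at the stricter p and 7 with the log2 minimum. The 15 calls never seen again became 25, 30, 33 (trend and robust moderation), 7 (stricter p), 6 (log2 minimum) and 9 (series matrix values). The 40 reversed at 48 h became 79, 64, 65, 25 (only the groups compared), 21 and 1, the 48 grown at 48 h became 118, 95, 88, 25, 17 and 4, and the 86 called against the 48 h control became 170, 138, 138, 50, 37 and 8, in the order no background correction, offset 50, trend and robust moderation, only the groups compared, stricter p and log2 minimum. Leaving out 1 array at a time gave 87 to 207 calls, 52.6% to 73.56% higher, 29 to 60 kept, 3 to 15 never called again, 17 to 41 reversed, 17 to 46 grown and 40 to 81 called against the control. The cause of these shifts was not tested, apart from the fewer samples or stricter thresholds that some settings hold by construction.

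The replicate numbers were not treated as pairing the arrays, since the labels state no pairing. The correlation of same-numbered deviations was over 0.1 in 16 of 28 pairs of groups (-0.07 to 0.29), so a shared replicate effect is possible, and it was 0.01 between 3 h and 0 h. A fit with the replicate block gave 269 calls, 85 of them kept at all 5 later times. Of 1421 alternative values, 190 moved by more than the limit or lost a call. None of the 42 named probes reversed its 3 h sign in any of 28 alternatives, and 26 kept their call in all of them except the log2 minimum. The kept sign was largely fixed by the choice of the probes, since the 3 h and 0 h arrays of called probes did not overlap. A named difference was counted as moved when its fold, not its log2 value, changed by over 1.5-fold. With no background correction 7 of the 42 moved, with log2 differences of 0.98 for Id4, 0.67 for Spen, 0.51 for Jun, 0.43 for Fos, 0.42 for Slc46a3, 0.42 for Otx1 and 0.40 for Egr4. Other log2 differences shrank by a large part without being counted, such as that of Jdp2 (-0.24 against -0.73 here). With an offset of 50 only Id4 moved (1.51) and in the series matrix values only Fbf1 (-1.45). Differences near background are bounds under the background step used, and 2 arrays a group limit the precision.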
